A study of Mus musculus with 25 samples.

Results

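The genes described here are 10 members of the transforming growth factor beta (TGF-beta) pathway in mouse skin stem cells, wounds and squamous tumours. They are the receptors Tgfbr1 and Tgfbr2, the ligands Tgfb1, Tgfb2 and Tgfb3, the transducer Smad3, the feedback inhibitors Smad7, Pmepa1 and Skil, and the matrix protein Ltbp2. They were taken by name from a count table of 24061 gene symbols, where all 10 were found. All 10 also passed the filter on low counts in every comparison. The set was drawn up to ask how the pathway's own genes differed between libraries whose labels carry the letters Tbr and the others, and across wounding, lineage and tumour.

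TGF-beta ligands are secreted in a latent form, held by their own propeptide and by latent TGF-beta binding proteins in the matrix, and are freed by integrins and proteases. The active ligand binds the type II receptor Tgfbr2, which phosphorylates the type I receptor Tgfbr1. Tgfbr1 then phosphorylates Smad2 and Smad3, which enter the nucleus with Smad4 and act on target genes at short DNA elements. Smad7 blocks the type I receptor, Pmepa1 keeps Smad2 and Smad3 from the receptor, and Skil (SnoN) represses Smad targets in the nucleus, and all 3 are themselves targets of the pathway. Ltbp2 belongs to the latent TGF-beta binding protein family but is known as a microfibril protein that does not bind the latent ligand. In skin the pathway restrains keratinocyte division, and in carcinomas it is known both as a growth brake and as a driver of invasion.

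RNA had been counted in 21 libraries of cells sorted from female B6 mice. Tumours had been grown as grafts, their GFP+ cells sorted into integrin alpha 6 high and low gates, with 1 library per gate and genotype: TbrKO, HRas TbrKO and HRas. Hair follicle stem cells (HFSC, integrin alpha 6 high, CD34+ Sca1-) and epidermal stem cells (EpdSC, CD34- Sca1+) carrying the Tbr label gave 1 library each, from adult skin at postnatal day 60. With the 6 tumour libraries these form the set DS. Wounded skin of set CL gave 2 libraries of the wounded HFSC lineage (YFP+) and 2 of wounded EpdSC (YFP-), marked through Sox9CreER and R26-YFP, beside 2 each of unwounded HFSC and EpdSC. Set BK held 1 library of wounded EpdSC, sorted on integrin alpha 6 alone, beside 2 each of HFSC and EpdSC. All libraries of CL and BK are also listed at postnatal day 60. For open chromatin (ATAC-seq), 4 pooled samples from mice of mixed CD1/B6 background were used: HRas tumour cells, wound cells, and HFSC and EpdSC at postnatal day 50.

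The labels do not spell out which receptor gene Tbr stands for, what drove its deletion or what the tumour genotypes share besides their names. Counts over a whole gene do not test a deleted exon, so neither receptor's level checks the label. In skin the Tbr label is found in set DS and the unlabelled libraries in BK and CL, so label and set cannot be told apart there. The high and low libraries of 1 tumour genotype may come from the same graft. The labels do not state whether replicate libraries are from separate animals, so a p-value reflects the spread between these libraries, which may be technical.

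Total counts per library ran between 14216472 and 36425082. The lowest count of any member in any library was 9 (Ltbp2) and the highest 21129, so counting error was small beside the spread between libraries for all but the lowest Ltbp2 values. Levels are CPM, reads of a gene scaled to the library total, after TMM scaling of all 21 libraries together, without correction for gene length, so they compare 1 gene across libraries and not genes with each other. Krt5 and Krt14, keratins of basal keratinocytes, lay between 10490 and 51620 CPM and between 4373 and 98920 CPM, so every library carried basal keratinocyte RNA. The bulge marker Cd34 lay between 429.5 and 3098 CPM in the 5 HFSC libraries, 1037 CPM in the Tbr HFSC, and at 2.32 and 2.46 CPM in the wounded HFSC lineage, which had been sorted by YFP.

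Promoters are shown for 3 members with an entry: Ltbp2, which ranged furthest across the libraries, Tgfb2, the ligand that stood apart in TbrKO tumours, and Tgfbr2, the ligand-binding receptor. Each stretch covers 250 bases before to 50 bases after a start site listed by RefSeq for build GRCm38.p6, 5′ to 3′ along the gene, and capitals mark the SMAD box CAGAC or its reverse complement GTCTG. The stretches are chr1:186705940-186706239, chr9:116175314-116175613 and chr12:84876442-84876741, all on the minus strand. The genes themselves span chr1:186622787-186709697 (Tgfb2), chr9:116087695-116175363 (Tgfbr2) and chr12:84783212-84876558 (Ltbp2).
Tgfb2: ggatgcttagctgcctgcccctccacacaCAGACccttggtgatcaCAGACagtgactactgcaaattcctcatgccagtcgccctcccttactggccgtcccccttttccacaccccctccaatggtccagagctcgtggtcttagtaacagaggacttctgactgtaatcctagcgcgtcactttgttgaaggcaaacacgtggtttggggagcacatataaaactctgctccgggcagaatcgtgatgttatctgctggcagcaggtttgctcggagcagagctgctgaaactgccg
Tgfbr2: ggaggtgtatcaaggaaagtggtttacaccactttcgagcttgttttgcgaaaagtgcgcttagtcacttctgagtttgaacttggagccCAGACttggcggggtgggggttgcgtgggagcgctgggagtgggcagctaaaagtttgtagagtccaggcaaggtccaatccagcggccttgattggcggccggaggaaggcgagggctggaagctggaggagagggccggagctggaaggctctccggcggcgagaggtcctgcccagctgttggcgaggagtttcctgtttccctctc
Ltbp2: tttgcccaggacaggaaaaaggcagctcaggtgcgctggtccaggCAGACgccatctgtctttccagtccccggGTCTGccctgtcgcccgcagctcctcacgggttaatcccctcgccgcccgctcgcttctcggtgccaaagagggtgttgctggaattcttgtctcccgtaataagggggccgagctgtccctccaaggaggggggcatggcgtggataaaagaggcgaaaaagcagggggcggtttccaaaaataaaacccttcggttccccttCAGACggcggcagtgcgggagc
Counted to the box's first base from the start base as 0, Tgfb2 held SMAD boxes at -221 and -204, Tgfbr2 held 1 at -160 and Ltbp2 held 3 at -205, -176 and 28. Such a box stood in 49.6% of the 32851 promoters of the same length, so its presence is common. The AP-1 motif TGANTCA, which reads the same on both strands, stood in 7.81% of promoters and in none of the 7 stretches available for 6 members, which says only that these letters are not in those windows. Of the others, Tgfb1, Smad3 and the first Tgfbr1 start had no SMAD box and a second Tgfbr1 start had 1. GC content was 54.3% for Tgfb2, 59.0% for Tgfbr2 and 61.0% for Ltbp2, against a median of 52.7% over all promoters. Tgfb3, Smad7, Pmepa1 and Skil had no entry.

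The 10 members differed widely in how far they moved across the 21 libraries. Tgfbr1 varied least, with its highest library 3.67-fold above its lowest, and Tgfbr2 next, at 7.77-fold. Tgfb1, Smad7 and Smad3 spanned 10.2-fold, 11.5-fold and 11.7-fold. Tgfb3 spanned 22.8-fold, Skil 25.5-fold, Tgfb2 73.1-fold and Pmepa1 99.5-fold. Ltbp2 spanned 1958-fold, with its highest group mean in BK HFSC at 575 CPM and its lowest in the wounded HFSC lineage at 0.346 CPM. TbrKO tumours held the highest library of Tgfbr2, Tgfb2, Smad3, Pmepa1 and Skil, in each case the integrin high one. In bulk libraries, fewer cells of a type and less RNA per cell cannot be told apart, and this holds for every level below. Where levels below are said to overlap or not, this is a description, since the share over all genes was not computed.

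**Figure D1:**
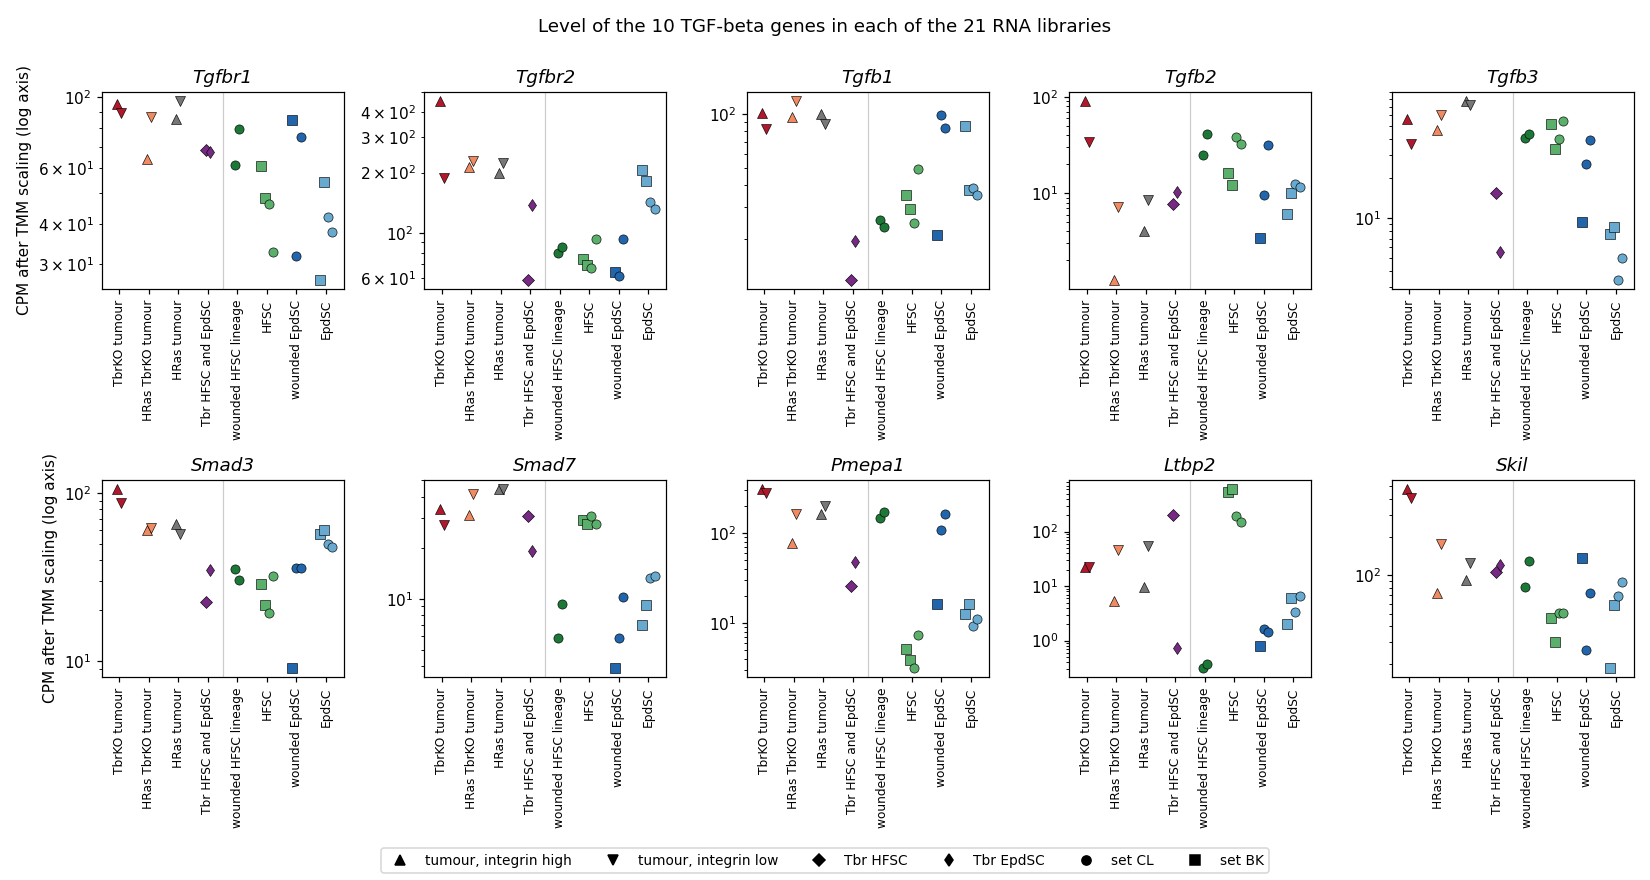
CPM of each member in all 21 libraries, on a log axis, 1 panel per gene. Groups run left to right with the Tbr-labelled and tumour libraries first, and markers give the gate or library set. Ltbp2 is highest in unwounded HFSC, with 539.7 and 611 CPM in BK, and Pmepa1 and Skil are highest in TbrKO tumours.

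Tgfbr2, the ligand-binding receptor, was measured at 454.9 and 187 CPM in integrin high and low TbrKO tumour cells. It stood at 213.4 and 228.3 CPM in HRas TbrKO tumour cells and at 198.4 and 224.4 CPM in HRas tumour cells. The TbrKO high library therefore stood alone, and its low partner lay under all 4 other tumour libraries. In Tbr skin Tgfbr2 stood at 58.6 CPM in HFSC and 138.6 CPM in EpdSC. Unlabelled HFSC had 74.8 and 69.6 CPM in BK and 67.3 and 94.1 CPM in CL, all above the Tbr HFSC. Unlabelled EpdSC had 206.7 and 181.9 CPM in BK and 142.6 and 132.1 CPM in CL, so the Tbr EpdSC library lay within them. Wounded skin had 61.6 and 93.2 CPM in CL EpdSC, 64.4 CPM in BK EpdSC and 79.7 and 85.2 CPM in the HFSC lineage. From high to low the TbrKO integrin high library came first, then the other tumour libraries and unwounded EpdSC, which overlapped, and then HFSC and wounded skin, which overlapped too.

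Tgfbr1, the signalling receptor, moved less. It stood at 95.4 and 89.6 CPM in TbrKO tumours, 64.0 and 86.9 CPM in HRas TbrKO tumours, and 85.4 and 97.7 CPM in HRas tumours. In Tbr skin it stood at 68.2 CPM in HFSC and 67.4 CPM in EpdSC, above all 8 unlabelled unwounded skin libraries, which lay between 26.7 and 60.7 CPM. Wounded libraries spread between 31.6 and 84.9 CPM and overlapped both. The lowest group mean was that of CL HFSC, at 39.4 CPM, and the groups next to it in order did not differ beyond their spread.

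Across all 21 libraries, no member passed the test of the 6 Tbr-labelled libraries against the 15 others, with cell class in the model. The label was estimated inside the classes that hold both kinds of library: HFSC, EpdSC and each tumour gate. Wounded classes hold no Tbr library, so they added to the estimate of spread and not to the label's contrast. With edgeR 0 of 10 members passed an adjusted p of 0.05, DESeq2 called 0, and 2 had an unadjusted p under 0.05. Over all 16218 genes edgeR called 0.0185%, with 0.0123% higher and 0.00617% lower. The receptors gave log2 fold changes of 0.29 ± 0.23 for Tgfbr1 (SE; edgeR adjusted p = 0.614) and -0.05 ± 0.23 for Tgfbr2 (edgeR adjusted p = 0.933). The 2 members with the lowest p were feedback inhibitors, Pmepa1 at 1.29 ± 0.42 (edgeR adjusted p = 0.31) and Skil at 1.24 ± 0.44 (edgeR adjusted p = 0.345). The other 6 lay between -0.90 for Ltbp2 and 0.65 for Tgfb2. The members' median was 0.008, beside 0.007 over all genes. For every member the range of the 6 Tbr libraries overlapped that of the 15 others. Of 41 other pathway genes measured, edgeR called 0, DESeq2 called 0 and the unadjusted p lay under 0.05 for 0.

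Skin and tumours gave Pmepa1 different sizes, a difference that was not itself tested. Within skin its log2 fold change over BK and CL libraries was 2.17 ± 0.29 (edgeR adjusted p = 0.0117), and within tumours it was 0.18 ± 0.58. Skil gave 1.12 in skin (edgeR adjusted p = 0.112) and 1.38 ± 0.82 in tumours (edgeR adjusted p = 0.816). Tgfb2 differed in sign, at -0.70 in skin and 2.23 ± 1.77 in tumours, neither of which passed.

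In Tbr HFSC and EpdSC set against BK, Pmepa1 was the 1 member called by edgeR, and it rose. DESeq2 called 5, with Pmepa1 and Skil higher and Tgfb1, Tgfb3 and Ltbp2 lower, the same number that had an unadjusted edgeR p under 0.05. Over all 14192 genes DESeq2 called 3049, and 4761 had an unadjusted edgeR p under 0.05. Pmepa1 stood at 25.7 CPM in Tbr HFSC, against 5.15 and 3.85 CPM in BK HFSC and 3.14 and 7.35 CPM in CL HFSC. It stood at 48.2 CPM in Tbr EpdSC, against 12.7 and 16.1 CPM in BK EpdSC and 9.13 and 11.1 CPM in CL EpdSC. Both Tbr libraries lay above every unlabelled unwounded library of their cell type, and below the wounded CL libraries, which lay between 109.3 and 172.6 CPM. The log2 fold change over BK was 2.14 ± 0.27 (edgeR adjusted p = 0.0457), and 0.282% of 14192 genes were called, 0.197% higher and 0.0846% lower. The adjusted p rose to 0.122 and 0.112 without BK HFSC 1 or 2, to 0.492 without Tbr HFSC and to 0.286 without Tbr EpdSC. With CL as the unlabelled libraries the log2 fold change was 2.24 (edgeR adjusted p = 0.00793), in a fit that called 3314 of 14150 genes.

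Skil was also above every unlabelled unwounded library of its cell type, at 105.8 CPM in Tbr HFSC and 119.8 CPM in Tbr EpdSC. BK HFSC had 46.0 and 30.0 CPM and BK EpdSC 18.7 and 58.5 CPM, while CL HFSC had 50.4 and 50.9 CPM and CL EpdSC 69.5 and 88.2 CPM. Against BK the log2 difference was 1.55 ± 0.41 (edgeR adjusted p = 0.0725), which did not pass. It passed against CL at 0.81 (edgeR adjusted p = 0.0157), in the fit that called 3314 of 14150 genes. Against BK it was 1.32 without EpdSC 1 and 2.00 without EpdSC 2, in fits with 1 library left in that group.

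The ligand Tgfb1 lay the other way, at 11.7 CPM in Tbr HFSC and 19.3 CPM in Tbr EpdSC. BK HFSC had 35.3 and 29.4 CPM, BK EpdSC 86.2 and 37.3 CPM, CL HFSC 24.4 and 49.2 CPM and CL EpdSC 38.3 and 35.2 CPM, none of which overlapped the Tbr library of the same type. Its log2 difference was -1.58 ± 0.37 against BK (edgeR adjusted p = 0.0646). Against CL it was -1.30 (edgeR adjusted p = 0.031), where 3314 of 14150 genes were called. Against BK it was -1.21 without EpdSC 1 and -1.77 without EpdSC 2. Ltbp2 stood at 199.7 CPM in Tbr HFSC, under the 539.7 and 611 CPM of BK but above the 192.5 and 151.7 CPM of CL. In Tbr EpdSC it stood at 0.723 CPM, below the 2.00 and 6.12 CPM of BK EpdSC and the 3.35 and 6.49 CPM of CL EpdSC. Its log2 difference of -1.90 ± 0.49 against BK (edgeR adjusted p = 0.0708) became -0.68 against CL (edgeR adjusted p = 0.397). Against BK the Ltbp2 difference was -1.97 without EpdSC 1 and -1.52 without EpdSC 2.

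Tgfb3 stood at 15.6 CPM in Tbr HFSC and 5.50 CPM in Tbr EpdSC, against 51.7 and 33.1 CPM in BK HFSC and 7.60 and 8.63 CPM in BK EpdSC, a difference of -0.99 (edgeR adjusted p = 0.0955). Neither receptor passed against BK, with log2 differences of 0.54 ± 0.31 for Tgfbr1 (edgeR adjusted p = 0.252) and -0.40 ± 0.22 for Tgfbr2 (edgeR adjusted p = 0.227). Against CL Tgfbr1 passed at 0.75 ± 0.15 (edgeR adjusted p = 0.0161), in the fit that called 3314 of 14150 genes. The members' median was -0.31 against -0.007 over all genes. Of the 41 other pathway genes edgeR called 0, while DESeq2 called 8 and the unadjusted p lay under 0.05 for 10. The summed level of 9 immediate early genes, which react within minutes to handling and growth signals, was 20670 CPM in Tbr HFSC and 27470 CPM in Tbr EpdSC. It was 6137 and 4434 CPM in BK HFSC and 28190 and 33800 CPM in BK EpdSC, with 0 of the 9 called, and the part of this in the results was not tested.

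Between HRas TbrKO and HRas tumours no member passed. With edgeR 0 of 10 passed, DESeq2 called 0 and the unadjusted p lay under 0.05 for 0. edgeR called 0% of 15113 genes, with 1701 at an unadjusted p under 0.05 and 399 called by DESeq2. Log2 differences were -0.28 ± 0.16 for Tgfbr1 (edgeR adjusted p = 0.589) and 0.07 ± 0.36 for Tgfbr2 (edgeR adjusted p = 0.962). Pmepa1 stood at 77.3 and 164.9 CPM in HRas TbrKO high and low cells, against 164.5 and 203.3 CPM in HRas high and low cells. Tgfb3 stood at 46.5 and 60.1 CPM in HRas TbrKO cells, against 77.5 and 71.95 CPM in HRas cells, and Smad7 at 31.2 and 41.4 CPM, against 44.2 and 44.6 CPM. For Tgfb3 and Smad7 both HRas TbrKO libraries were lower than both HRas libraries, yet neither gene passed. The share of all genes that lie apart in this way was not computed. Of 41 other pathway genes edgeR called 0, with 3 lower at an unadjusted p under 0.05 and 1 by DESeq2.

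TbrKO tumours, which carry no HRas in their label, stood apart from both other tumour genotypes. Against HRas tumours 3 members rose, Tgfb2, Smad3 and Skil, where 33% of all genes were called and 16.2% were higher. Against HRas TbrKO tumours, a comparison added after the counts were seen, 4 members rose, Tgfb2, Smad3, Pmepa1 and Skil, where 34.1% were called and 16.7% were higher. These comparisons share the TbrKO libraries. The members' median log2 difference was 0.33 and 0.52, beside -0.03 and -0.04 over all genes.

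Tgfb2 showed the largest difference. It stood at 91.4 and 33.9 CPM in TbrKO high and low cells, against 1.25 and 7.11 CPM in HRas TbrKO cells and 4.05 and 8.59 CPM in HRas cells. The log2 fold change was 3.52 ± 0.91 over HRas (edgeR adjusted p = 0.0376) and 4.21 ± 0.97 over HRas TbrKO (edgeR adjusted p = 0.027). Its size rested on the TbrKO high library, without which it was 1.71 over HRas and 2.56 over HRas TbrKO, in fits with 1 TbrKO library. The groups did not overlap, since the lower TbrKO library exceeded all 4 others. In skin Tgfb2 was 24.9 and 41.5 CPM in the wounded HFSC lineage and 38.7 and 32.5 CPM in CL HFSC, so the TbrKO low library lay within the range of these cells.

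Skil and Pmepa1, targets that feed back on the pathway, were at their highest in TbrKO tumours. Skil stood at 477.2 and 402.5 CPM there, against 72.2 and 176.4 CPM in HRas TbrKO and 92.2 and 124.9 CPM in HRas tumours. Its log2 fold change was 2.06 ± 0.36 over HRas (edgeR adjusted p = 0.0139) and 1.92 ± 0.36 over HRas TbrKO (edgeR adjusted p = 0.016). Both TbrKO libraries exceeded every other library of the series. Pmepa1 stood at 311.9 and 281.9 CPM, against 77.3 and 164.9 CPM in HRas TbrKO tumours, a log2 change of 1.35 ± 0.30 (edgeR adjusted p = 0.024). Against the 164.5 and 203.3 CPM of HRas tumours Pmepa1 did not overlap either, and it was not called (edgeR adjusted p = 0.117). Smad3 stood at 105.9 and 87.3 CPM, against 59.9 and 61.6 CPM in HRas TbrKO and 65.4 and 57.0 CPM in HRas tumours. Its log2 fold change was 0.64 ± 0.14 over HRas (edgeR adjusted p = 0.0244) and also 0.64 over HRas TbrKO (edgeR adjusted p = 0.0242).

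Tgfb3 and Smad7 lay lower without passing. Tgfb3 stood at 56.1 and 36.6 CPM in TbrKO tumours, a log2 difference of -0.72 ± 0.24 from HRas (edgeR adjusted p = 0.0672). Smad7 stood at 33.7 and 27.3 CPM, a difference of -0.56 ± 0.20 (edgeR adjusted p = 0.0799). Without TbrKO high, which left 1 TbrKO library, these differences were -1.06 and -0.78. Neither receptor passed: Tgfbr1 differed by 0.009 and Tgfbr2 by 0.50 from HRas, and by 0.29 and 0.43 from HRas TbrKO. Without TbrKO low Tgfbr2 differed by 1.19 from HRas and by 1.10 from HRas TbrKO, and without TbrKO high by -0.21 and -0.29. Tgfbr1 differed by 0.50 from HRas TbrKO without TbrKO low. Each of these fits held 1 TbrKO library.

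These fits had 2 residual degrees of freedom, and the calls were lost when a library of the other genotype was left out. Over HRas the 3 calls were lost without HRas high (edgeR adjusted p = 0.0947 to 0.207) and without HRas low (edgeR adjusted p = 0.0794 to 0.221). Over HRas TbrKO the 4 were lost without HRas TbrKO high (edgeR adjusted p = 0.0789 to 0.16), where Pmepa1 gave 0.88, and Smad3 also without HRas TbrKO low (edgeR adjusted p = 0.0661). Immediate early genes summed to 17890 and 11340 CPM in TbrKO tumours, 4124 and 6752 CPM in HRas TbrKO and 4280 and 4804 CPM in HRas tumours, with 7 of 9 called higher over HRas. The 6 fibroblast markers summed to 1629 and 5031 CPM in TbrKO, 857 and 9321 CPM in HRas TbrKO and 2064 and 10770 CPM in HRas tumours, with 0 called higher and 2 called lower over HRas. Of 3 mural cell genes Acta2 was called higher, at 847.4 and 415.4 CPM in TbrKO against 47.3 and 142.4 CPM in HRas tumours, while Rgs5 and Des lay lower without a call. All 3 endothelial markers were called lower in TbrKO tumours in both comparisons, with sums of 45.0 and 45.4 CPM in TbrKO, 86.4 and 177.9 CPM in HRas TbrKO and 156.3 and 211.5 CPM in HRas tumours. Of 5 leukocyte markers tested, 3 were called lower over HRas and 4 over HRas TbrKO. The part of these in the results was not tested.

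Other genes of the pathway were called in TbrKO tumours too. Over HRas 17 of 41 rose and 4 fell, with a median of 0.44, and over HRas TbrKO 18 rose and 4 fell, with a median of 0.70. By role, 6 of the 10 latency and activation genes rose and 1 fell over HRas, 6 of the 8 activin genes rose and 1 fell, 3 of 7 inhibitors rose, 2 of 9 targets rose and 1 fell, and 1 of 3 co-receptors fell. Over all genes 16.2% rose and 16.9% fell. Itgb8, an integrin subunit that frees latent ligand, stood at 60.7 and 48.4 CPM in TbrKO tumours, against 2.58 and 4.85 CPM in HRas tumours, a log2 change of 3.98 ± 0.45 (edgeR adjusted p = 0.00529). Ltbp4, a latent TGF-beta binding protein, rose by 2.29 ± 0.23 (edgeR adjusted p = 0.0043) and Bambi, a decoy receptor and inhibitor, by 3.06 ± 0.60 (edgeR adjusted p = 0.0184). The target Ctgf stood at 517 and 316.2 CPM, against 41.5 and 101.6 CPM, a change of 2.78 ± 0.61 (edgeR adjusted p = 0.0237). Over HRas TbrKO tumours the activin subunit gene Inhbb rose by 2.45 ± 0.21 (edgeR adjusted p = 0.00321), at 179.4 and 148.2 CPM against 25.3 and 34.6 CPM.

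**Figure D2:**
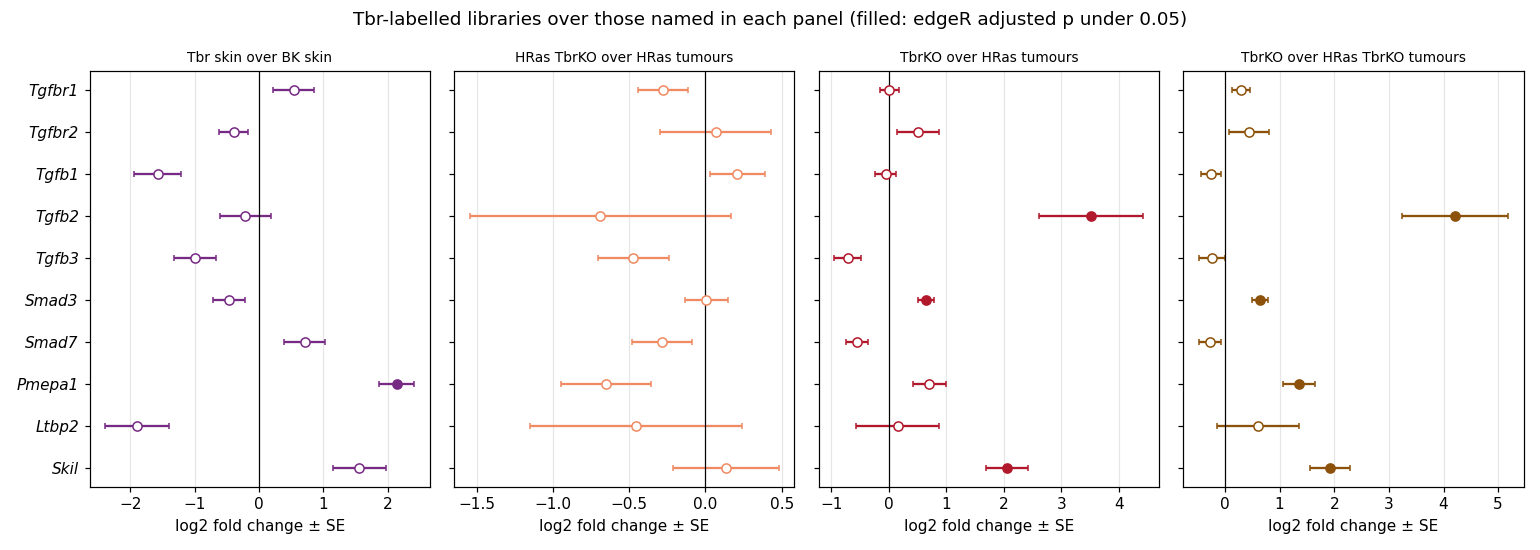
Log2 fold changes of the 10 members with their standard errors in 4 comparisons of Tbr-labelled libraries, each panel with its own axis, where filled points have an edgeR adjusted p under 0.05. Pmepa1 stands at 2.14 in skin, Tgfb2 at 3.52 and 4.21 in TbrKO tumours, and no point is filled for HRas TbrKO over HRas tumours.

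Between the integrin gates of tumours no member passed. edgeR called 0 of 10 members and 3.15% of all 15113 genes. DESeq2 called 1 member and 1668 genes, and the unadjusted edgeR p lay under 0.05 for 1 member and 3511 genes. The member was Ltbp2, at 22.1, 5.25 and 9.77 CPM in integrin high TbrKO, HRas TbrKO and HRas cells, against 22.3, 46.2 and 54.9 CPM in the low cells. Its log2 difference was -1.87 ± 0.63 (edgeR adjusted p = 0.167). It was -2.73 without TbrKO high and -2.77 without TbrKO low, in fits with 1 TbrKO library left. The gates lay apart in both HRas-bearing genotypes and within 1 CPM of each other in TbrKO, a contrast that was not tested. The fibroblast markers summed to between 857 and 2064 CPM in high cells and between 5031 and 10770 CPM in low cells, with 6 of 6 called lower in the high gate, as were 4 of 5 leukocyte markers, and their part was not tested. Of the other pathway genes 0 rose and 3 fell: the matrix target Fn1, and Nrros and Lrrc32, which anchor latent ligand on cell surfaces, with log2 differences of -2.44, -1.63 and -1.57.

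TbrKO tumours set against Tbr skin stem cells compare tumour with skin under a shared label. The fit gave each pair 1 mean, with 1 HFSC and 1 EpdSC library as skin and 1 high and 1 low library as tumour. Its SE and p therefore rest on a spread that mixes cell types and gates. Here 5 of 10 members rose and 0 fell, where 19.9% of 15471 genes were called, 11.6% higher and 8.31% lower. Tgfb1 stood at 101.0 and 82.0 CPM in TbrKO tumours, against 11.7 CPM in Tbr HFSC and 19.3 CPM in Tbr EpdSC, a log2 change of 2.53 ± 0.29 (edgeR adjusted p = 0.00503). Pmepa1 rose by 2.98 ± 0.44 (edgeR adjusted p = 0.0103), Smad3 by 1.74 ± 0.26 (edgeR adjusted p = 0.0103), Tgfb3 by 2.12 ± 0.48 (edgeR adjusted p = 0.0297) and Skil by 1.94 ± 0.40 (edgeR adjusted p = 0.0236). In none of the 5 did a tumour library overlap a skin library, and the share of all genes for which this holds was not computed. DESeq2 called 7 members, and 5156 of the 15471 genes. The members' median was 1.84, beside 0.007 over all genes. The Skil call was lost without any 1 of the 4 libraries (edgeR adjusted p = 0.066 to 0.0882), and Tgfb3 without TbrKO high (edgeR adjusted p = 0.115) or TbrKO low (edgeR adjusted p = 0.0793). A fit of those 4 libraries alone lost Tgfb3 (edgeR adjusted p = 0.0967) and Smad3 (edgeR adjusted p = 0.0536).

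Of the other pathway genes 10 of 41 rose and 2 fell in that comparison. Inhba, an activin subunit, stood at 61.3 and 77.5 CPM in TbrKO tumours, against 0.436 and 0.522 CPM in Tbr HFSC and EpdSC. Lrrc32, Tagln, which codes for an actin-binding protein of smooth muscle, and Fn1 rose by 5.58, 6.13 and 5.62 on the log2 scale. Fibroblast markers moved with them, at 1629 and 5031 CPM in tumours, against 35.8 and 5.91 CPM in Tbr HFSC and EpdSC, with 4 of 6 called higher. All 3 mural and all 3 endothelial markers were called higher too, and the part of these markers was not tested.

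Between unwounded lineages, Ltbp2 and Tgfb3 were the members that set HFSC apart in both sets. In CL 2 of 10 members rose in HFSC and 0 fell, where 10.8% of 14831 genes were called, 7.19% higher and 3.63% lower. Ltbp2 stood at 192.5 and 151.7 CPM in CL HFSC, against 3.35 and 6.49 CPM in CL EpdSC, a log2 change of 5.13 ± 0.35 (edgeR adjusted p = 0.000309). Tgfb3 stood at 39.7 and 54.5 CPM in CL HFSC, against 3.39 and 4.95 CPM in CL EpdSC, a log2 change of 3.50 ± 0.33 (edgeR adjusted p = 0.00073). In BK Ltbp2 stood at 539.7 and 611 CPM in HFSC, against 2.00 and 6.12 CPM in EpdSC, and Tgfb3 at 51.7 and 33.1 CPM, against 7.60 and 8.63 CPM. The BK log2 changes were 7.15 ± 0.69 (edgeR adjusted p = 0.00385) and 2.37 ± 0.35 (edgeR adjusted p = 0.00985). The Tbr libraries showed the same side, with Ltbp2 at 199.7 CPM in HFSC and 0.723 CPM in EpdSC, and Tgfb3 at 15.6 and 5.50 CPM, with 1 library each and no test.

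In BK 3 members rose and 3 fell in HFSC, where 14.4% of 14663 genes were called, 7.91% higher and 6.47% lower. Besides Ltbp2 and Tgfb3, Smad7 rose at 29.3 and 27.7 CPM in HFSC, against 7.01 and 9.14 CPM in EpdSC, a log2 change of 1.81 ± 0.33 (edgeR adjusted p = 0.0184). Tgfbr2 fell by 1.44 ± 0.29 on the log2 scale (edgeR adjusted p = 0.0253), Smad3 by 1.23 ± 0.29 (edgeR adjusted p = 0.041) and Pmepa1 by 1.69 ± 0.36 (edgeR adjusted p = 0.0287). Smad3 stood at 28.8 and 21.7 CPM in BK HFSC, against 57.0 and 60.2 CPM in BK EpdSC. In CL these 4 lay on the same sides without an edgeR call, at 1.12 for Smad7, -0.77 for Tgfbr2, -0.93 for Smad3 and -0.96 for Pmepa1, and Tgfb2 lay at 1.55. DESeq2 called Smad7, Smad3 and Tgfb2 in CL as well, and edgeR called Smad3 and Tgfb2 without the filter on low counts, Smad3 and Pmepa1 without CL HFSC 2, and Smad7 and Tgfb2 in a fit of the 4 libraries alone. The 4 BK calls were lost without BK HFSC 1 (edgeR adjusted p = 0.118 to 0.38) or BK HFSC 2 (edgeR adjusted p = 0.0906 to 0.596), which left 2 members called. Without EpdSC 1 or EpdSC 2 the 4 kept their calls, in fits with 1 library left in that group, and without EpdSC 2 more members were called. The number of genes called over the whole table moved in these fits too, so this is no result about the members. Without any 1 of the 4 libraries, the log2 changes lay between 1.61 and 2.03 for Smad7 and -1.51 and -1.36 for Tgfbr2. They lay between -1.42 and -1.03 for Smad3 and -1.89 and -1.49 for Pmepa1. The median over members was -0.016 in CL and 0.19 in BK, beside -0.02 and -0.04 over all genes.

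Of the other pathway genes 6 of 41 rose and 2 fell in CL HFSC, and 11 rose and 2 fell in BK HFSC. Ltbp1, which carries the latent ligand to the matrix, rose by 2.87 ± 0.32 in CL (edgeR adjusted p = 0.00133) and by 3.32 ± 0.64 in BK (edgeR adjusted p = 0.0217). Fst, which binds and blocks activin, stood at 334.6 and 277.6 CPM in BK HFSC, against 14.8 and 20.3 CPM in BK EpdSC, a change of 4.11 ± 0.36 (edgeR adjusted p = 0.00322). All 9 immediate early genes were called lower in BK HFSC, at 6137 and 4434 CPM against 28190 and 33800 CPM in BK EpdSC, and 0 of 9 in CL. Fibroblast markers summed to 36.9 and 39.4 CPM in CL HFSC against 1.68 and 2.31 CPM in CL EpdSC, with 2 of 6 called higher, and to 90.4 and 92.5 CPM in BK HFSC against 2.71 and 1.16 CPM in BK EpdSC, with 3 of 4 tested called higher. The part of these genes in the results was not tested.

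Between wounded and unwounded libraries of set CL, Pmepa1 was higher and Ltbp2 lower after wounding in both lineages. Wounded cells were sorted by YFP, so wound and sort changed together and cannot be told apart in any CL wound comparison. In the wounded HFSC lineage 1 member rose and 2 fell, where 46.1% of 14831 genes were called, 21.4% higher and 24.7% lower. Ltbp2 stood at 0.312 and 0.379 CPM in the wounded HFSC lineage, against 192.5 and 151.7 CPM in HFSC, a log2 change of -8.95 ± 0.44 (edgeR adjusted p = 2.26e-05). Pmepa1 stood at 148.6 and 172.6 CPM, against 3.14 and 7.35 CPM, a change of 4.93 ± 0.46 (edgeR adjusted p = 0.000176). Smad7 stood at 5.89 and 9.36 CPM, against 30.9 and 27.5 CPM, a change of -1.94 ± 0.35 (edgeR adjusted p = 0.00323). None of the 3 overlapped between wounded and unwounded libraries, and all 3 calls held without any 1 library. Skil stood at 80.7 and 129.1 CPM, against 50.4 and 50.9 CPM, and did not pass.

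In wounded EpdSC of CL 3 members rose and 2 fell, where 58.4% of genes were called, 30.2% higher and 28.2% lower. Pmepa1 stood at 109.3 and 164.5 CPM in wounded EpdSC, against 9.13 and 11.1 CPM in EpdSC, a log2 change of 3.75 ± 0.43 (edgeR adjusted p = 0.000341). Tgfb3 stood at 25.9 and 39.1 CPM, against 3.39 and 4.95 CPM, a change of 2.96 ± 0.33 (edgeR adjusted p = 0.000273). Tgfb1 stood at 99.1 and 83.4 CPM, against 38.3 and 35.2 CPM, a change of 1.29 ± 0.32 (edgeR adjusted p = 0.00974). So 2 ligands and a feedback target were higher after wounding in this lineage. Ltbp2 stood at 1.64 and 1.44 CPM, against 3.35 and 6.49 CPM, a change of -1.67 ± 0.34 (edgeR adjusted p = 0.00429). Tgfbr2 stood at 61.6 and 93.2 CPM, against 142.6 and 132.1 CPM, a change of -0.84 ± 0.27 (edgeR adjusted p = 0.0279). The Tgfbr2 call was lost without EpdSC 1 (edgeR adjusted p = 0.124), EpdSC 2 (edgeR adjusted p = 0.0886) or wounded EpdSC 1, where it was -0.55 (edgeR adjusted p = 0.109), and in a fit of the 4 EpdSC libraries alone (edgeR adjusted p = 0.0553). The Tgfb1 call was lost without EpdSC 1 (edgeR adjusted p = 0.056) or EpdSC 2 (edgeR adjusted p = 0.0714).

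The wounded EpdSC libraries of CL, sorted as YFP-, held markers of other cells. The 6 fibroblast markers summed to 627.2 and 675.7 CPM there, against 1.68 and 2.31 CPM in EpdSC, and 6 leukocyte markers to 3523 and 2748 CPM, against 30.6 and 19.3 CPM, with 6 of 6 called higher in both lists. In the wounded HFSC lineage the sums were 8.60 and 5.99 CPM for fibroblast and 28.95 and 23.65 CPM for leukocyte markers. Fibroblasts and leukocytes are known to make TGF-beta ligands as well, and the part of these markers in the 2 ligands' values was not tested. All 9 immediate early genes fell in both wound comparisons, to 550.8 and 519.7 CPM in the wounded HFSC lineage, against 23490 and 40110 CPM in HFSC. They stood at 921.4 and 1070 CPM in wounded EpdSC, against 46140 and 41640 CPM in EpdSC.

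The responses of the lineages to wounding differed for 3 of 10 members, by the test of the difference itself, where 15.8% of genes were called, 5.31% higher and 10.5% lower. The difference, wounded HFSC lineage response minus wounded EpdSC response, was -7.28 ± 0.53 for Ltbp2 (edgeR adjusted p = 0.000377), -3.14 ± 0.43 for Tgfb3 (edgeR adjusted p = 0.00392) and -1.91 ± 0.45 for Tgfb1 (edgeR adjusted p = 0.029). Ltbp2 in unwounded EpdSC was already low, at 3.35 and 6.49 CPM against 192.5 and 151.7 CPM in HFSC, which left less room to fall. The part of this starting gap in the difference was not tested. Tgfb3 stood at 40.2 and 43.7 CPM in the wounded HFSC lineage, against 39.7 and 54.5 CPM in HFSC, so its levels overlapped in this lineage while they did not in EpdSC. Tgfb1 stood at 25.5 and 23.1 CPM, against 24.4 and 49.2 CPM, and overlapped too. The Tgfb1 difference was lost in 5 of the 8 fits without 1 library and lay between -2.32 and -1.29. Pmepa1 did not pass, at 1.18 (edgeR adjusted p = 0.157). The 2 responses share no library, and in each of them wound and sort changed together. Replicate numbers may pair the wounded libraries of the 2 lineages (correlation of deviations 0.645), and the main fit treated them as unpaired.

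**Figure D3:**
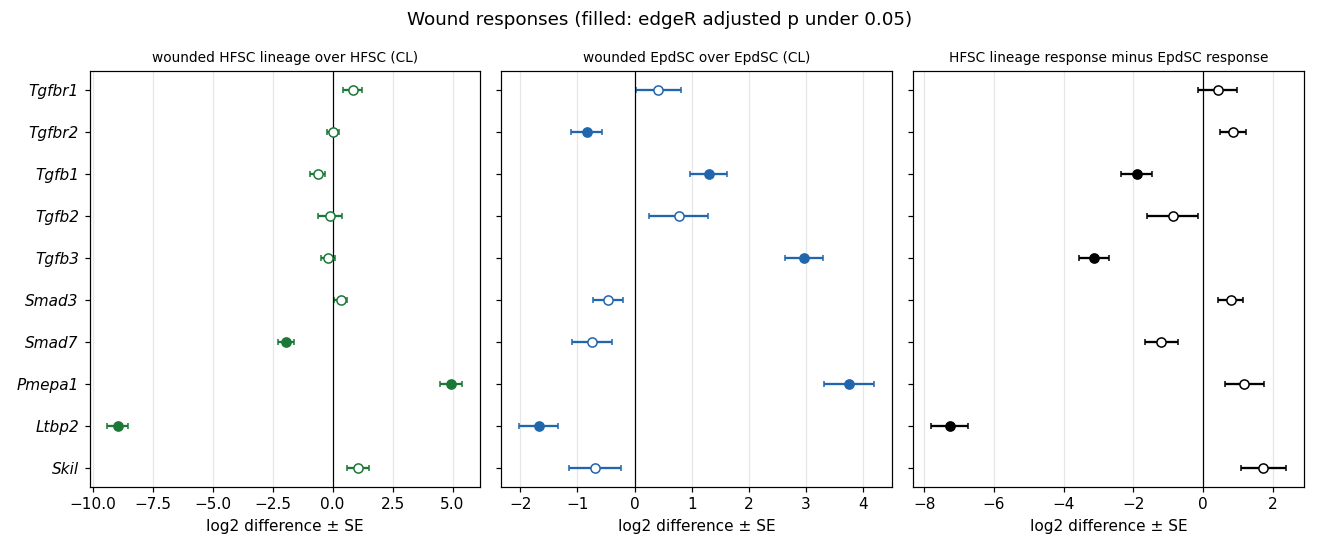
Log2 fold changes of the 10 members with standard errors in set CL for the wounded HFSC lineage over HFSC, wounded EpdSC over EpdSC and the difference of the 2 responses, each panel with its own axis, where filled points have an edgeR adjusted p under 0.05. Pmepa1 stands at 4.93 and 3.75, and Ltbp2 at -8.95 and -1.67.

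Of the other pathway genes 5 of 41 rose and 15 fell in the wounded HFSC lineage, and 13 rose and 18 fell in wounded EpdSC, where 46.1% and 58.4% of all genes were called in either direction, with medians of -0.68 and -0.39 beside -0.10 and -0.04 over all genes. Bambi, the decoy receptor, fell by 4.60 ± 0.47 on the log2 scale in the wounded HFSC lineage (edgeR adjusted p = 0.000264). In wounded EpdSC the co-receptor gene Tgfbr3 fell to 2.39 and 2.83 CPM, against 107.7 and 105.8 CPM in EpdSC, a change of -5.36 ± 0.26 (edgeR adjusted p = 1.7e-05). Thbs1, a matrix protein that can free latent ligand, fell by 4.21 ± 0.50 on the log2 scale (edgeR adjusted p = 0.000372). Nrros, which leukocytes express, rose by 3.95 ± 0.53 (edgeR adjusted p = 0.000626). In the difference of the responses 1 rose and 9 fell, among them Fn1 at -3.90 and the endothelial co-receptor gene Eng at -3.82.

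The single wounded EpdSC library of BK did not show the CL pattern. Pmepa1 stood at 16.3 CPM in it, against 12.7 and 16.1 CPM in BK EpdSC, where CL wounded EpdSC had 109.3 and 164.5 CPM. The 1 member called by edgeR was Smad3, which fell to 9.06 CPM, against 57.0 and 60.2 CPM in BK EpdSC, a log2 change of -2.75 ± 0.41 (edgeR adjusted p = 0.0445) that held without either EpdSC library. DESeq2 also called Tgfbr2, Tgfb1 and Ltbp2, all lower, and Skil, higher, and it called more genes than edgeR over the whole table. Leaving out EpdSC 1 or EpdSC 2 raised the edgeR calls of members and of all genes, in fits with 1 library on each side. The fit takes the lone library to vary like the other BK groups, and in it 7.97% of 14663 genes were called and 6.21% were lower. Skil stood at 137.7 CPM, against 18.7 and 58.5 CPM, and Tgfb1 at 20.9 CPM, against 86.2 and 37.3 CPM, with no overlap and no edgeR call. Tgfbr2 stood at 64.4 CPM, against 206.7 and 181.9 CPM, a difference of -1.66 (edgeR adjusted p = 0.0528). Fibroblast and leukocyte markers summed to 1.12 and 20.7 CPM in that library. The sort, the set and the number of libraries differed from CL, so the sets' wound responses were given side by side and not tested against each other. Of the other pathway genes 1 rose and 6 fell. The riser was Fst at 2.67, and among the 6 were Ltbp4 at -3.30 and Ltbp3 at -2.21, both latent TGF-beta binding proteins, and the repressor gene Ski at -2.46.

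Across the 21 libraries the members did not vary as 1 block. The highest Pearson correlation of log2(CPM + 1) between members was 0.872, for Tgfbr2 and Smad3, followed by 0.798 for Tgfbr1 and Skil, 0.717 for Tgfb1 and Smad3 and 0.715 for Smad7 and Ltbp2. The lowest was -0.424, for Pmepa1 and Ltbp2. These values describe 21 libraries that share sets, cell types and genotypes. Among 16218 genes Ltbp2 was most like Adra2a (0.974), Cd34 (0.969) and Hoxd8 (0.954), and Pmepa1 most like Arf4 (0.955), Pla2g7 (0.942) and Eno1b (0.94). Tgfb1 was most like Gnai2 (0.938), Tgfb3 like Kirrel (0.915), Skil like Tank (0.919), Smad7 like Usp35 (0.913) and Smad3 like Tgfbr2. Tgfbr2 was most like Fhod3 (0.881), and Tgfb2 had no gene above 0.8, which it reached with Camk2g.

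Open chromatin was described from 1 pooled peak list per population, so no comparison between populations has a replicate. The lists held 54201 peaks in HRas tumour cells, 56865 in wound cells, 55435 in HFSC and 25742 in EpdSC, from 29579794, 11140895, 26825550 and 13963471 fragments. Within the 10 members and 10 kb on each side lay 56 tumour, 69 wound, 61 HFSC and 27 EpdSC peaks. The EpdSC list was the shortest, and its part in the low numbers there was not tested. Pmepa1 had 12 tumour, 13 wound, 7 HFSC and 7 EpdSC peaks, and Smad3 had 8, 12, 6 and 2 in the same order of populations. Smad7 and Ltbp2 had most in HFSC, with 12 and 11 there, against 7 and 6 in tumour cells, 6 and 7 in wound cells and 2 and 1 in EpdSC. Tgfbr1 had between 2 and 3 in every population.

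Merged over the populations, the peaks formed 100 regions. Of these 17 were open in all 4, 20 in HFSC alone, 15 in wound cells alone, 13 in tumour and wound cells but not in unwounded skin, 6 in tumour cells alone and 2 in EpdSC alone. Of the 20 regions found in HFSC alone, 5 lay at Ltbp2, 4 at Smad7 and 3 at Tgfb3, with 2 each at Tgfb2, Smad3 and Skil and 1 each at Tgfbr1 and Pmepa1. The share of such regions over all peaks was not computed. The 1 EpdSC peak at Ltbp2, chr12:84772879-84773519, lay in the flank beyond the end of the gene and was also found in the other 3 populations.

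The start sites of the 6 members with a promoter entry had a peak within 1 kb in nearly every population. The exceptions were Tgfb1 and Ltbp2, which had none in EpdSC, where 33.5% of 27025 genes had a start-site peak, beside 42.7% in tumour cells, 45.2% in wound cells and 46.6% in HFSC. The second Tgfbr1 start had none in any population. At the Ltbp2 start shown above, the peak's pileup, scaled to the same number of fragments, was 1.25 in tumour cells, 2.06 in wound cells and 3.17 in HFSC. The wound sample thus had an Ltbp2 start-site peak, where the RNA of both wounded CL groups lay at 1.64 CPM or below. At the Tgfbr2 start the scaled pileup was 2.13 in tumour cells, 4.49 in wound cells, 3.02 in HFSC and 2.87 in EpdSC, and at the Tgfb2 start 3.21, 3.59, 1.94 and 3.22 in the same order. Pileups are the peak caller's own values and were divided here by the fragment number alone, so their order across populations is a description. Mouse strain differed between the ATAC and RNA samples. Age differed for HFSC and EpdSC, at postnatal day 50 for ATAC and 60 for RNA. No age is listed for the tumour samples or the ATAC wound sample.

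**Figure D4:**
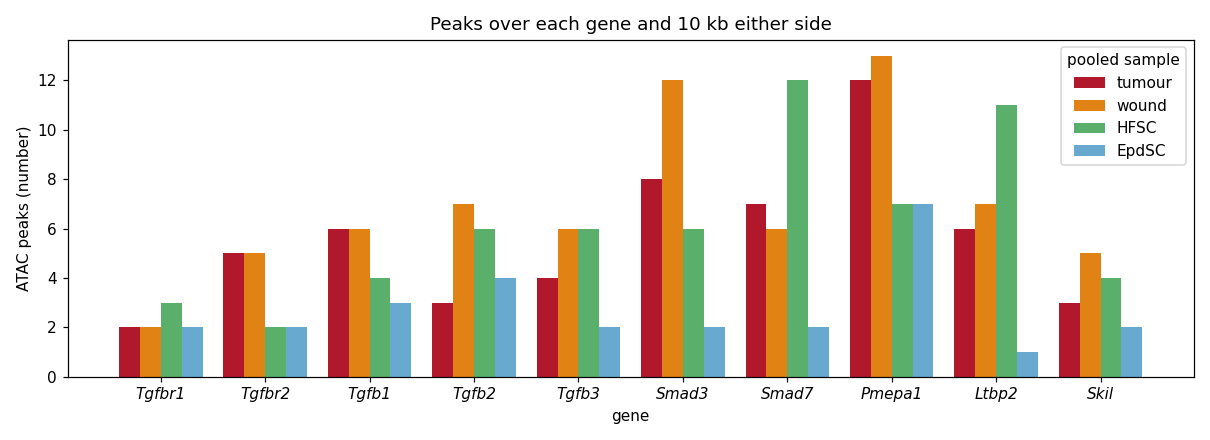
Number of ATAC peaks within each member and 10 kb on each side in HRas tumour cells, wound cells, HFSC and EpdSC, as bars from 0. Smad7 and Ltbp2 have 12 and 11 in HFSC, and Pmepa1 has 12 in tumour and 13 in wound cells.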

How the data were processed

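RNA was analysed in 21 libraries and open chromatin in 4 pooled ATAC samples. RNA libraries (TruSeq) were read from a single end over 51 cycles, per the labels' protocols. The build was mm10 (the coordinates of GRCm38.p6) and the tools included Picard, Bowtie, STAR and MACS2 2.1.1.20160309, per the submitters' processing notes. No source used here gives the gene counter or its strand setting. The authors deposited whole-number counts per gene, with no normalisation. Every one of the 21 columns was matched to a sample title (0 unmatched), and a line of totals was left out. The column of the BK wounded EpdSC library carried added characters that its title lacks. The columns of the Tbr skin libraries had a changed word order. Ensembl-based count tables of the CL libraries (47729 IDs, 98.94% matched to a symbol) served as an alternative.

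ATAC peaks were called with MACS2 on pooled paired ends without a control, at q = 0.05 with duplicates kept, per the file headers. The authors deposited each peak's pileup signal, fold enrichment (a ratio to local background), and -log10 p and -log10 q values. A peak was given to a member when it lay in the gene or within 10 kb of it.

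The test was edgeR's quasi-likelihood F test (version 4.0.16, R 4.3.3) on genes kept by filterByExpr, scaled by TMM, with p-values adjusted by Benjamini-Hochberg over all genes and called under 0.05. Sets CL and BK were fitted apart with 1 mean per group. TbrKO tumours were set against Tbr skin in a fit of set DS with 1 mean for each tumour genotype and 1 for skin. Tumour genotypes were fitted with the gate as a block, the gates with genotype as a block, and the Tbr label with cell class as a block. Standard errors were the log2 fold change over the root of F. Alternatives were DESeq2 1.42.0, its size factors in edgeR, no filter, narrower fits, and each library left out. The scripts were tested on simulated data.

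Members and gene lists were chosen with earlier results of these data known. All members were named, and of 42 other pathway genes (41 measured) the 4 called genes with the largest absolute log2 fold change per comparison. Some that the rule names were left to the counts. For likeness, the nearest genes by Pearson correlation of log2(CPM + 1) were taken. Promoters are those of RefSeq for GRCm38.p6. No library was a copy of another: chi-square per degree of freedom within groups was 15 to 279.7.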

Additional observations from a re-analysis of the deposited data

Results flagged for a closer look

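In set CL 3 members responded to wounding differently in the HFSC lineage and in EpdSC, by a test of the difference itself. Wound and sort changed together in both lineages and cannot be told apart. For Ltbp2 the response of the HFSC lineage minus that of EpdSC was -7.277 on the log2 scale (edgeR adjusted p = 0.000377), with a fall in both lineages. Unwounded EpdSC started from 3.35 and 6.49 CPM, against 192.5 and 151.7 CPM in HFSC, and the part of this gap was not tested. For Tgfb3 the difference was -3.139 (edgeR adjusted p = 0.00392), with levels of wounded and unwounded libraries that overlapped in the HFSC lineage and did not in EpdSC. For Tgfb1 the difference was -1.908 (edgeR adjusted p = 0.029), and this call was lost in 5 of the 8 fits that left out 1 library. In wounded EpdSC 6 of 6 fibroblast and 6 of 6 leukocyte markers were called higher, and 4 fibroblast and 5 leukocyte markers were called in the difference of the responses. Their part in the members' values was not tested.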

How the results depend on the processing

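Over 73 reported member values and 825 combinations of value and setting, 706 kept direction and side of the threshold, 55 gained a call, 44 lost one and 20 changed sign. Of the 33 called values 0 changed sign, 18 lost their call in at least 1 setting and 15 kept it in all. The limit throughout is the number of libraries, with 2 to 4 residual degrees of freedom in the tumour, CL, BK and Tbr skin fits. Depth limits Ltbp2 in wounded skin, where a library could hold as few as 9 counts, and the peak lists, which have no replicates. The causes of the changes below were not tested.

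The values that changed sign were all uncalled. For the Tbr label over all libraries, Tgfb2 was -0.705 with an HRas term, -0.699 in skin libraries alone, -0.792 without the TbrKO tumour pair, and between -0.464 and 1.474 with 1 library left out. In tumour libraries alone the label gave -0.128 for Tgfbr1, 0.294 for Tgfbr2, 0.083 for Tgfb1, 0.359 for Smad3 and -0.415 for Smad7. With 1 library left out it gave -0.279 to 0.105 for Tgfbr2, -0.214 to 0.135 for Smad3 and -0.253 to 0.215 for Smad7. Tgfbr2 ran between -0.272 and 0.492 for HRas TbrKO over HRas tumours, -0.212 and 1.188 for TbrKO over HRas, and -0.287 and 1.101 for TbrKO over HRas TbrKO. Tgfbr1 ran between -0.156 and 0.231 for TbrKO over HRas.

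Counts of called genes over the whole table moved more than the members did. DESeq2 called 200 genes for the Tbr label, 3049 for Tbr skin over BK, 399 for HRas TbrKO over HRas, 1668 between gates, 5156 for TbrKO tumours over Tbr skin, 4053 for the difference of wound responses and 3264 for BK wounded EpdSC. For the Tbr label edgeR called 5 with an HRas term, 1007 in skin alone, 0 in tumours alone and 5 without the TbrKO pair. For Tbr skin it called 265 without a filter, 3314 with CL and 1007 with BK and CL as the unlabelled libraries. Between gates it called 256 with DESeq2 size factors and 777 without a filter, and 2131 without a filter for BK wounded EpdSC. Fits of only the 4 libraries compared called 680 for TbrKO tumours over Tbr skin and 2502 for HFSC over EpdSC in CL. Within 50 kb the members had 99 tumour, 116 wound, 99 HFSC and 47 EpdSC peaks.

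With 1 library left out, the counts ran from 0 to 33 for the Tbr label (33 without BK wounded EpdSC), 0 to 5850 for Tbr skin, 0 to 0 for HRas TbrKO over HRas, 685 to 6639 and 954 to 6983 for TbrKO over HRas and HRas TbrKO, 0 to 3483 between gates and 717 to 2786 for TbrKO tumours over Tbr skin. In CL they ran from 505 to 1072 for HFSC over EpdSC, 4064 to 5006 and 5735 to 9382 for the wounded HFSC lineage and wounded EpdSC, and 789 to 6499 for their difference. In BK they ran from 1260 to 6486 for HFSC over EpdSC and 6635 to 6848 for wounded EpdSC.

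The correlations of same-numbered deviations were -0.014, -0.324, -0.312, 0.094, 0.073 and 0.645 in CL and -0.277 in BK. The 0.645 was that of the wounded HFSC lineage and wounded EpdSC, so the replicate numbers may pair those libraries. The main CL and BK fits treated all libraries as unpaired. With a replicate block edgeR called 1470, 6451, 8487 and 1966 genes in CL for lineage, both wound responses and their difference, and 2478 in BK. In BK the block put Tgfbr2 at -1.42 (edgeR adjusted p = 0.0507) and Smad3 at -1.22 (edgeR adjusted p = 0.0759). A crossed replicate block in BK, added after seeing the data, called 3627 genes.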
